A study of Mus musculus with 20 samples.

Results

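The 10 immediate early genes of the AP-1 and Egr families described here are Fos, Fosb, Jun, Junb, Jund, Egr1, Egr2, Egr3, Atf3 and Ier2. They were chosen by symbol, 10 of 24394 genes in the count table, and all 10 passed the filter on low counts that kept 15568 genes for testing. Poly-A RNA was sequenced from microglia, the resident macrophages of the brain, that had been isolated by fluorescence-activated cell sorting from 20 mice. Libraries named T2MG and Control were made at embryonic day 16 (E16, 3 T2MG and 3 Control), postnatal day 15 (P15, 3 T2MG and 3 Control) and postnatal day 60 (P60, 4 T2MG and 4 Control).

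Per the labels, T2MG microglia were deficient in signalling through transforming growth factor beta (TGF-beta). This genotype entry is blank for P60 T2MG replicate 4, so the title decided its group. The series text, which gives the embryonic stage as E16.5, states that microglia lacked 1 or both copies of Tgfbr2, the type II TGF-beta receptor gene, and gives as many animals per genotype and stage as there are libraries. The labels call the other genotype only Control and say neither how many copies these animals carried nor how the gene was targeted. The strain entry reads C57Bl6; FVB for all 20 libraries, and the sources used here do not give the sort markers. Tgfbr2 transcripts were present in all libraries, with T2MG against Control log2 fold changes of -0.26 at E16, -0.71 at P15 and -0.16 at P60, and Tgfbr2 was called at P15 alone (adjusted p = 0.0305). Counts over a whole gene do not show whether single exons are missing.

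Immediate early genes are transcribed within minutes of a stimulus, without new protein synthesis, when kinases of the MAPK pathways activate factors already bound to their promoters. Fos and Fosb proteins pair with Jun, Junb or Jund proteins through leucine zippers to form AP-1, which binds the element TGANTCA, whereas Egr1, Egr2 and Egr3 are zinc-finger factors that bind GC-rich DNA. Atf3 encodes a related leucine-zipper factor induced by stress, and Ier2 encodes a small nuclear protein induced by growth factors. In microglia and other brain cells these genes also respond to enzymatic or mechanical dissociation, so a level in sorted cells combines the state in the tissue with the response to isolation, and these cannot be told apart here.

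RefSeq promoter windows (GRCm38.p6, the assembly of mm10) were found for 7 of the 10 genes: Fos, Fosb, Jun, Junb, Jund, Egr2 and Atf3. Stretches from 100 bases before to 50 bases after an annotated start are shown for 4 genes that behaved differently in the comparisons below. Capitals mark matches to 5 motifs: the cAMP response element core TGACGT, the pattern TGACNTCA, the AP-1 element TGANTCA and the serum response element (both strands), and TATAAA (gene strand).

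Fos promoter (chr12:85473790-85473939, plus strand): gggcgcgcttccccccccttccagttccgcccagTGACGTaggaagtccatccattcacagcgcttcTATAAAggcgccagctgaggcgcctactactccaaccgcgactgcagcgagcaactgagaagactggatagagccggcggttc

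Egr2 promoter (chr10:67537769-67537918, plus strand): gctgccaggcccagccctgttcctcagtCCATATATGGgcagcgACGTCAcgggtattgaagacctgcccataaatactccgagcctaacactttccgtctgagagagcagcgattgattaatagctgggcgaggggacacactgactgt

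Jun promoter (chr4:95052173-95052322, minus strand): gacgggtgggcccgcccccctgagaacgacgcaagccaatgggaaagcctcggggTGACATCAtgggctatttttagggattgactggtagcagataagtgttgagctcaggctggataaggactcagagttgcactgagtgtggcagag

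Atf3 promoter (chr1:191183284-191183433, minus strand): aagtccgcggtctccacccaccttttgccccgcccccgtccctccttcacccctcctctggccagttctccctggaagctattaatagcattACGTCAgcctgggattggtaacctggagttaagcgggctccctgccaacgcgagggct

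The Fos stretch holds TGACGT starting at position -66 and TATAAA at -33, counted from the start site at position 0. The Egr2 stretch, from 1 of several annotated starts, holds a serum response element at -72 and TGACGT on the opposite strand at -56. Jun holds a match to TGACNTCA at -45, and Atf3 holds TGACGT on the opposite strand at -8. Across 32851 promoter windows of 300 bases, TGACGT occurred in 7.51%, TGACNTCA in 8.83%, TGANTCA in 7.81%, the serum response element in 1.63% and TATAAA in 8.32%. These shares are for single whole windows, and shares for the shorter stretches shown were not computed. The matches shown describe letters in the windows and were not tested for binding or against the responses of the genes. The windows reach 250 bases before a start, so elements further out are not covered. Egr1, Egr3 and Ier2 had no window.

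In the GENCODE M21 annotation of GRCm38, Fos (ENSMUSG00000021250) lies at chr12:85473890-85477273 on the plus strand and Jun (ENSMUSG00000052684), a single-exon gene, at chr4:95049034-95052222 on the minus strand. Egr1 (ENSMUSG00000038418) lies at chr18:34859823-34864984, Egr2 (ENSMUSG00000037868) at chr10:67535475-67542188 and Egr3 (ENSMUSG00000033730) at chr14:70077203-70082614, all on the plus strand. Fosb (ENSMUSG00000003545) lies at chr7:19302696-19310051 and Atf3 (ENSMUSG00000026628) at chr1:191170296-191218039, both on the minus strand. Junb (ENSMUSG00000052837) at chr8:84974484-84978718 and Ier2 (ENSMUSG00000053560) at chr8:84661331-84662852, both on the minus strand, share chromosome 8 with Jund (ENSMUSG00000071076) at chr8:70698949-70700616 on the plus strand. Whole-gene spans of other genes, introns included, overlap those of Jun (Junos, antisense, 689 bases), Jund (Gm11175, antisense, 919 bases), Junb (Prdx2, opposite strand, 351 bases) and Atf3 (Gm24748, opposite strand, 108 bases). Whether the shared bases lie in exons of both genes was not examined. The sources used here do not give the strand setting of the counting, so the counts of these 4 genes may include reads of the overlapping genes.

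Library totals, in units of 1e+06 counts, were 7.44 to 9.22 at E16, 14.5 to 16.4 at P15 and 12.7 to 16.5 at P60. Levels below are counts-per-million values (CPM) on library sizes scaled by the trimmed mean of M-values (TMM). All 12 microglia and macrophage markers of the fixed list were detected in every library, with Csf1r at 2148 CPM or more. Their summed level was 4424 to 6393 CPM in E16 T2MG and 7957 to 16086 CPM in E16 Control, 7450 to 12292 CPM in P15 T2MG and 34765 to 51761 CPM in P15 Control, and 14531 to 15861 CPM in P60 T2MG and 59774 to 81366 CPM in P60 Control. Sall1, a microglial transcription factor, was at 0.45 to 0.92 CPM in P60 T2MG and 242 to 385 CPM in P60 Control. P60 Control 1 stood apart from the other P60 Control libraries, with a summed neutrophil marker level of 8191 CPM against 512 to 717 CPM in Control 2 to 4, and results at P60 are also given without it.

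**Figure D1:**
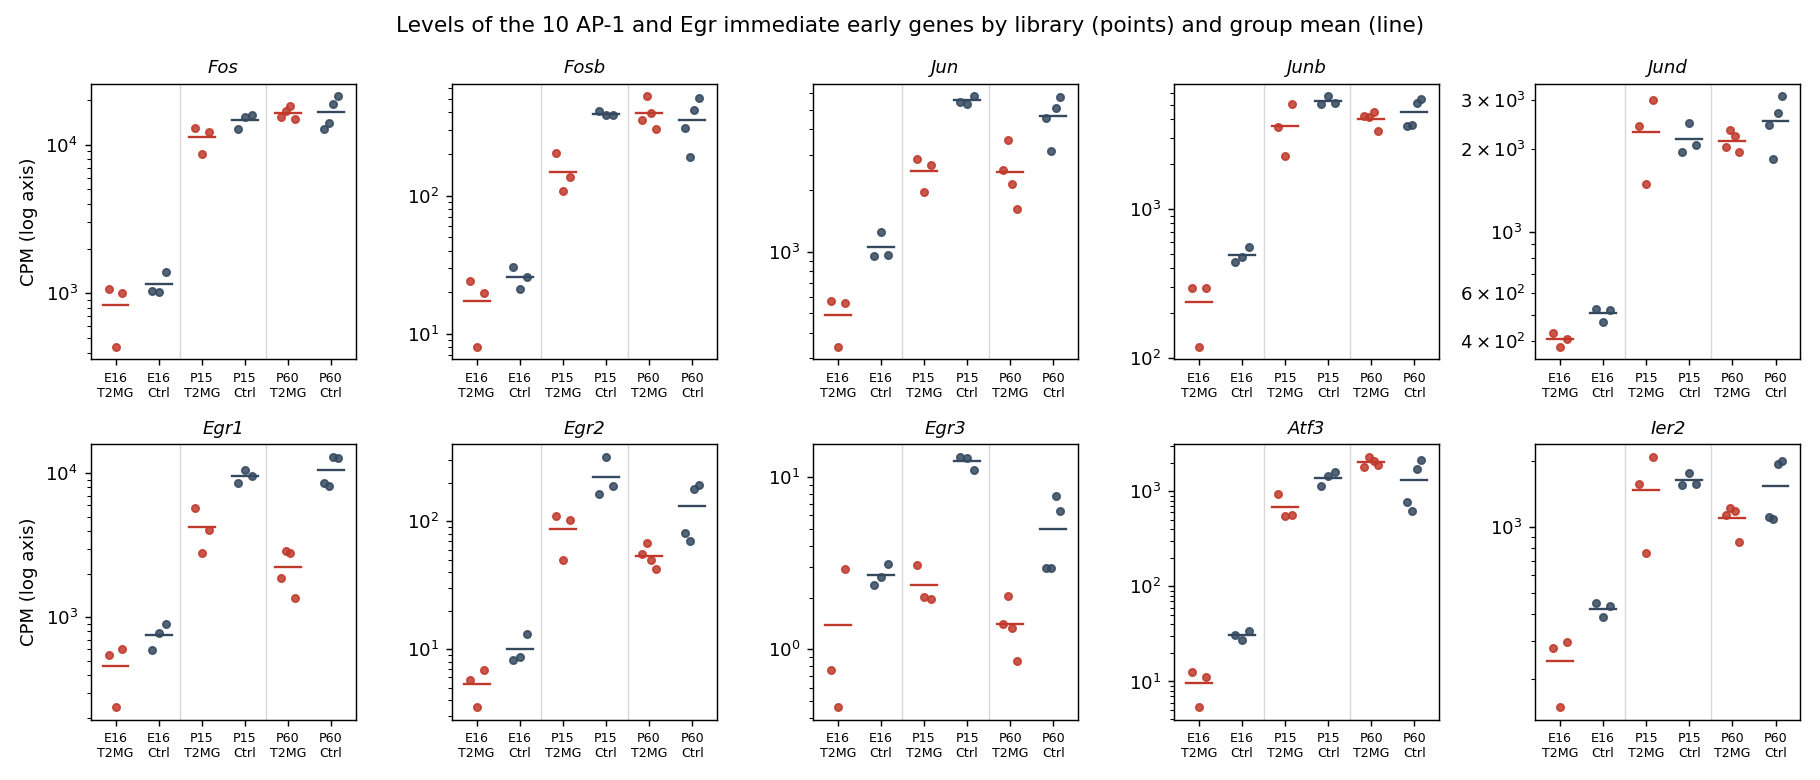
CPM of the 10 genes (log axis, scaled separately for each gene) in each library (points) by stage, T2MG in red left of Control in blue, with group means as lines. All 10 Control means are higher at P15 than at E16, and at P60 the Egr1, Egr2 and Egr3 points of T2MG lie below all Control points.

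Control libraries were compared between stages first, since they set the levels against which the genotype is read. All 10 genes were higher in P15 than in E16 Control libraries, with no overlap between the groups, where 24% of all genes tested were called higher and 31% were higher without overlap. The log2 fold changes ran from 1.95 for Ier2 to 5.51 for Atf3, with a median of 3.55, against -0.02 over all genes. On library totals in place of TMM all 10 stayed called higher, while the split over all genes went to 2221 called higher and 6018 lower, against 3739 and 4157 with TMM. The 10 genes together took 3.76% to 4.14% of all counts in P15 Control libraries and 0.495% to 0.65% in E16 Control libraries.

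Atf3 changed most, at 1130, 1437 and 1615 CPM in P15 Control and 30.7, 27.3 and 33.7 CPM in E16 Control (log2 fold change 5.51, SE 0.46, adjusted p = 1.36e-07). Fos had 12652, 15272 and 15849 CPM in P15 Control and 1040, 1024 and 1393 CPM in E16 Control (3.66, SE 0.32, adjusted p = 2.45e-07). The 3 P15 libraries of each gene lay close together and far above the E16 libraries. Egr2 rose by 4.48, Fosb by 3.91, Egr1 by 3.66, Junb by 3.43, Jun by 2.40, Egr3 by 2.17 and Jund by 2.10 on the log2 scale.

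Other genes of the immediate early response were higher with them. Of 40 tested genes of the wider immediate early list, 31 were called higher and 1 lower in P15 than in E16 Control, where 24% of all genes were called higher and 26.7% lower, among them Dusp1 (4.8), a phosphatase that switches off MAPK signalling, Btg2 (4.36), an antiproliferative gene, Nfkbia (4.19), the inhibitor of NF-kappaB, and Sgk1 (5.36), a serum and glucocorticoid responsive kinase, in log2 fold change. Of 12 heat shock genes, which also respond to dissociation, 8 rose and 1 fell, with a median log2 fold change of 0.68. Hspa1a, at 7.92, and Hspa1b, at 8.34, lay far above that median. The summed level of this list was 6607, 11956 and 7093 CPM in P15 Control 1, 2 and 3 and 3955 to 4659 CPM in E16 Control. The stages also differed in depth, in TMM factors (0.91 to 1.02 in P15 Control and 1.21 to 1.34 in E16 Control) and in the summed level of 15 neuron markers (8.25 to 38.1 CPM in P15 Control and 386 to 875 CPM in E16 Control). Of 9 neutrophil markers 7 were called higher and none lower, with a summed level of 3673 to 9499 CPM in P15 Control and 252 to 899 CPM in E16 Control. Of 11 lymphocyte markers 9 were called higher and none lower, with a summed level of 129.9 to 286 CPM in P15 Control and 39.4 to 65.8 CPM in E16 Control. The 12 microglia and macrophage markers (9 called higher, none lower) summed to 34765 to 51761 CPM in P15 Control and 7957 to 16086 CPM in E16 Control. The 10 border-associated macrophage markers (1 called higher, 5 lower) summed to 615 to 664 CPM in P15 Control and 3371 to 3902 CPM in E16 Control. With the mean level of the neuron markers as a covariate, 5 of the 10 genes (Fos, Junb, Jund, Egr2 and Atf3) stayed called. Over all genes, 1896 were called in that fit in place of 7896. Since the neuron list itself separated the stages, list and stage cannot be told apart in that fit. The part of these differences in the result was not tested otherwise.

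Between P60 and P15 Control libraries, none of the 10 genes was called by edgeR, against 18.6% of all genes tested. At an unadjusted p under 0.05 there were 2 of the 10 genes, Egr3 and Egr2, where 33.9% of all genes were, and DESeq2 and limma voom each called 1, Egr3. Egr3 was at 2.98, 2.98, 7.82 and 6.32 CPM in P60 Control and at 13.1, 12.9 and 11.0 CPM in P15 Control (log2 fold change -1.29, SE 0.47, adjusted p = 0.0647), the only one of the 10 whose Control groups did not overlap between these stages (lower without overlap, 15.5% of all genes).

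Against these levels the genotype comparison asked how cells with impaired TGF-beta signalling differed at each stage. At E16, 2 of the 10 genes were lower in T2MG, Jun and Atf3, and none was higher, where 2.67% of all genes tested were called lower and 0.527% higher. At P15, 5 were lower (Fosb, Jun, Egr1, Egr2 and Egr3) and none was higher, against 12.3% lower and 11.7% higher among all genes. At P60, 4 were lower (Jun, Egr1, Egr2 and Egr3) and none was higher, against 15.7% lower and 23.5% higher among all genes. The median log2 fold changes of the 10 genes were -0.85, -1.09 and -0.36 at E16, P15 and P60, and those of all genes tested were 0.04, 0.01 and 0.14. On library totals in place of TMM the split over all genes was 103 higher and 221 lower at E16 and 1281 higher and 2426 lower at P15, against 82 higher and 416 lower at E16 and 1821 higher and 1917 lower at P15 with TMM. Jun was the gene called at all 3 stages by edgeR with TMM. At an unadjusted p under 0.05 there were 4, 6 and 4 of the 10 genes at the 3 stages, where 17.3%, 36.7% and 47.8% of all genes were, so the P60 count was no higher than the share of all genes.

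**Figure D2:**
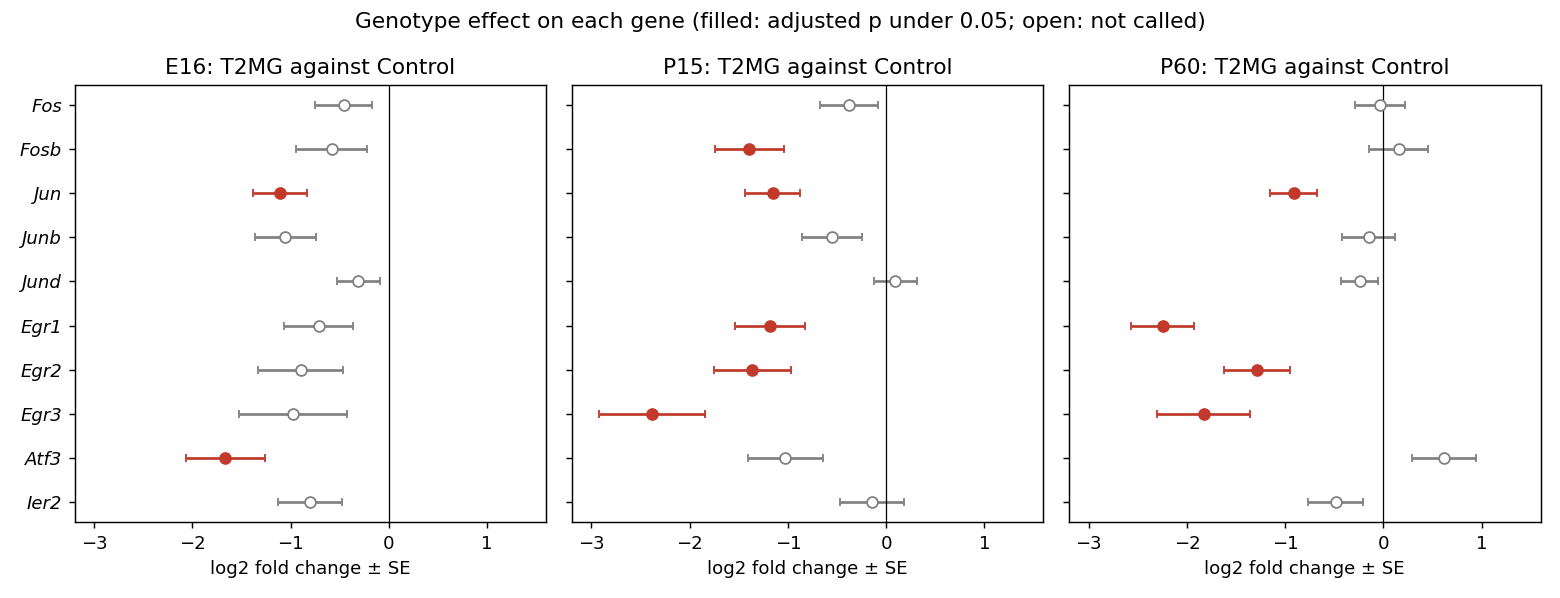
Log2 fold change of T2MG against Control with its standard error for each of the 10 genes at E16, P15 and P60; filled red symbols have an adjusted p under 0.05. Jun is filled in all 3 panels, the Egr genes at P15 and P60, and Fos and Jund in none.

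Egr1, induced in most cell types by growth factors and the best studied of its family, had the largest reduction of the 10 genes at P60. It was at 1888, 2871, 2798 and 1369 CPM in P60 T2MG and 8507, 8156, 13002 and 12754 CPM in P60 Control, so the highest T2MG library lay far below the lowest Control library. The log2 fold change was -2.25 (SE 0.32, edgeR adjusted p = 2.36e-05). At P15 it was at 5777, 2820 and 4069 CPM in T2MG and 8579, 10582 and 9654 CPM in Control, again without overlap (-1.19, SE 0.36, adjusted p = 0.0218). At E16 it was at 545, 238 and 603 CPM in T2MG and 599, 774 and 899 CPM in Control, where the groups overlapped and Egr1 was not called (-0.71, SE 0.35, adjusted p = 0.308). The difference between the P60 and P15 effects was -1.06 (SE 0.46) and was not called (adjusted p = 0.163). The P60 call held in all 16 alternative fits, at -2.34 without P60 Control 1, whereas the P15 call was lost when T2MG 2 (adjusted p = 0.0779), T2MG 3 (0.0632), Control 2 (0.0614) or Control 3 (0.055) was left out.

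Egr2, a zinc-finger factor of myelinating glia that is also induced in activated immune cells, was at 55.1, 67.1, 50.2 and 42.0 CPM in P60 T2MG and 81.5, 70.7, 179 and 192 CPM in P60 Control. All T2MG libraries were below all Control libraries, which themselves fell into a lower and a higher pair (-1.29, SE 0.34, adjusted p = 0.0056). At P15 Egr2 was at 110, 49.8 and 102 CPM in T2MG and 164, 319 and 188 CPM in Control (-1.36, SE 0.39, adjusted p = 0.0166), a call that was lost without T2MG 2 (0.0623) or Control 2 (0.0909). At E16 it was at 5.70, 3.51 and 6.93 CPM in T2MG and 8.22, 8.70 and 13.1 CPM in Control, apart but not called (-0.90, SE 0.43, adjusted p = 0.293).

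Egr3, a relative of Egr1 known for its role in lymphocytes and muscle spindles, was the least abundant of the 10 genes per kilobase of exon, with 5 to 208 counts in a library. At P15 it was at 3.10, 2.02 and 1.96 CPM in T2MG and 13.1, 12.9 and 11.0 CPM in Control, with no overlap and the largest P15 reduction of the 10 (-2.38, SE 0.54, adjusted p = 0.0039). At P60 it was at 1.41, 2.05, 1.33 and 0.86 CPM in T2MG and 2.98, 2.98, 7.82 and 6.32 CPM in Control (-1.83, SE 0.47, adjusted p = 0.00501). At E16 T2MG 3, at 2.92 CPM, lay among the Control libraries (2.38, 2.63 and 3.15 CPM), while T2MG 1 and 2 were at 0.76 and 0.46 CPM (-0.97, SE 0.55, adjusted p = 0.379).

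Jun, the AP-1 subunit most often paired with Fos, was at 569, 342 and 556 CPM in E16 T2MG and 954, 1244 and 966 CPM in E16 Control (-1.11, SE 0.28, adjusted p = 0.0372). At P15 it was at 2846, 1967 and 2658 CPM in T2MG and 5468, 5352 and 5820 CPM in Control (-1.16, SE 0.28, adjusted p = 0.00586). In both stages every T2MG library was below every Control library. At P60 it was at 2515, 3547, 2144 and 1625 CPM in T2MG and 4551, 3139, 5103 and 5742 CPM in Control, so T2MG 2 lay above Control 2 (-0.91, SE 0.24, adjusted p = 0.00572). The E16 call of Jun was lost when Control 1, Control 2 or any of the 3 T2MG libraries was left out (adjusted p up to 0.171), and held without Control 3. It was also lost with RLE size factors (0.0509) and on library totals (0.0818), and held with DESeq2 and limma voom. The P15 and P60 calls held in each fit with a library left out.

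The other Jun genes were not called at any stage. Junb, an AP-1 subunit that often restrains growth, was at 295, 120 and 296 CPM in E16 T2MG and 444, 477 and 558 CPM in E16 Control (-1.06, SE 0.31, adjusted p = 0.0743) while DESeq2 (adjusted p = 0.0221) and limma voom (0.0215) called it. At P60 Junb ranged from 3343 to 4479 CPM in T2MG and from 3613 to 5494 CPM in Control, where the groups overlapped (-0.15, SE 0.27, adjusted p = 0.685). Jund, the Jun gene with the steadiest transcription in many cells, ranged from 1944 to 2340 CPM in P60 T2MG and from 1831 to 3103 CPM in P60 Control (-0.24, SE 0.19, adjusted p = 0.334), and its P15 value was 0.09 (SE 0.22, adjusted p = 0.792; -0.053 on library totals in place of TMM).

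Fos, the prototype of the immediate early genes, was the most abundant of the 10 per kilobase of exon and was not called at any stage. It was at 15199, 16737, 18186 and 14903 CPM in P60 T2MG and 12738, 13924, 18727 and 21135 CPM in P60 Control, with every T2MG library inside the Control range (-0.03, SE 0.25, adjusted p = 0.94; 0.0057 on library totals). At P15 it was at 12896, 8610 and 12179 CPM in T2MG and 12652, 15272 and 15849 CPM in Control (-0.38, SE 0.29, adjusted p = 0.368). At E16 it was at 1062, 439 and 1010 CPM in T2MG and 1040, 1024 and 1393 CPM in Control (-0.46, SE 0.29, adjusted p = 0.438).

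Fosb, whose product has a long-lived splice form in brain, differed from Fos at P15. It was at 202, 108 and 136 CPM in P15 T2MG and 409, 381 and 380 CPM in P15 Control, clearly apart (-1.39, SE 0.35, adjusted p = 0.00846). At P60 it was at 354, 524, 393 and 305 CPM in T2MG and 306, 190, 416 and 504 CPM in Control, with the groups mixed (0.15, SE 0.30, adjusted p = 0.719). The change of the genotype effect between P15 and P60 was 1.55 (SE 0.46, adjusted p = 0.0482), and Fosb was the 1 gene of the 10 that edgeR with TMM called in that comparison, where 5.63% of all genes were called higher and 2.4% lower (876 and 373 with TMM, 829 and 554 with RLE size factors, 1153 and 218 on library totals). DESeq2, limma voom and library totals called both Fosb and Atf3 there, and RLE size factors called neither (Fosb 1.46, adjusted p = 0.0576). The edgeR call of Fosb held without P15 T2MG 1, P60 Control 1 or P60 Control 4 and was lost without any 1 of the other 11 P15 and P60 libraries, with adjusted p between 0.0345 and 0.0937 over all 14 such fits. Between E16 and P15 none of the 10 genes had a called change of the genotype effect, where 16.3% of all genes did. At an unadjusted p under 0.05 there were none of the 10 either, where 31.3% of all genes were, and DESeq2 and limma voom each called none.

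Atf3 was called lower in T2MG at E16 by edgeR, and whether it was called at the later stages differed between tools. It was at 12.4, 5.36 and 11.1 CPM in E16 T2MG and 30.7, 27.3 and 33.7 CPM in E16 Control (-1.67, SE 0.40, adjusted p = 0.0305), a call that held without Control 3 and was lost without any 1 of the other 5 E16 libraries (adjusted p up to 0.124). DESeq2 kept this call, and limma voom (adjusted p = 0.0664) and library totals (0.0545) did not. At P15 it was at 930, 555 and 567 CPM in T2MG and 1130, 1437 and 1615 CPM in Control, apart but not called by edgeR (-1.03, SE 0.38, adjusted p = 0.0578). DESeq2 (adjusted p = 0.0312), limma voom (0.0268), edgeR on library totals (0.0324) and edgeR on the P15 libraries alone (0.0395) called it lower. At P60 it was at 1809, 2304, 2073 and 1899 CPM in T2MG and 773, 620, 1730 and 2132 CPM in Control, where T2MG libraries were alike and Control libraries split into a low and a high pair (0.62, SE 0.33, adjusted p = 0.141). Limma voom (0.80, adjusted p = 0.0388) and edgeR without P60 Control 4 (0.96, adjusted p = 0.03) called Atf3 higher. The change from the P15 to the P60 effect was 1.65 (SE 0.50, adjusted p = 0.0506), not called by edgeR with TMM but called by DESeq2 (0.0205), limma voom (0.0126) and edgeR on library totals (0.0303), and in 8 of 22 alternative fits in all.

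Ier2 was not called at any stage. It was at 279, 149 and 298 CPM in E16 T2MG and 449, 385 and 433 CPM in E16 Control (-0.80, SE 0.33, adjusted p = 0.211), and at 1131, 1226, 1181 and 853 CPM in P60 T2MG and 1113, 1087, 1938 and 2010 CPM in P60 Control (-0.49, SE 0.28, adjusted p = 0.183). The P60 Control libraries again formed a low pair that overlapped T2MG and a high pair above it.

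Counting libraries rather than calls, 6 of the 10 genes were lower in T2MG without overlap at E16, 7 at P15 and 3 at P60 (Egr1, Egr2 and Egr3), where 15.1%, 19.6% and 16.2% of all genes were. None of the 10 was higher without overlap at any stage, where 19.3%, 17.6% and 22.2% of all genes were. Together the 10 genes took 0.224% to 0.456% of counts in E16 T2MG and 0.495% to 0.65% in E16 Control, 1.74% to 2.63% in P15 T2MG and 3.76% to 4.14% in P15 Control, and 2.26% to 2.97% in P60 T2MG and 2.79% to 4.38% in P60 Control. These are bulk libraries, in which fewer cells that express a gene and less RNA per cell cannot be told apart.

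Ratios of counts within a library do not depend on scaling between libraries. Egr1 had 0.513 to 0.597 counts per Fos count in E16 T2MG and 0.576 to 0.756 in E16 Control, 0.327 to 0.448 in P15 T2MG and 0.609 to 0.693 in P15 Control, and 0.0919 to 0.172 in P60 T2MG and 0.586 to 0.694 in P60 Control. Control libraries thus kept similar ratios at stages between which Fos itself differed by 3.66 on the log2 scale, while in T2MG the ratio was lower at each later stage. Jun per Fos count was 0.536 to 0.777 in E16 T2MG and 0.693 to 1.22 in E16 Control, 0.218 to 0.228 in P15 T2MG and 0.35 to 0.432 in P15 Control, and 0.109 to 0.212 in P60 T2MG and 0.225 to 0.357 in P60 Control. Atf3 was at 1.10% to 1.22% of the Fos count in E16 T2MG and 2.42% to 2.95% in E16 Control, and at 4.66% to 7.21% in P15 T2MG and 8.93% to 10.2% in P15 Control, lower in T2MG without overlap. At P60 it was higher in T2MG without overlap, at 11.4% to 13.8% in T2MG and 4.45% to 10.1% in Control. These ratios were chosen after the values had been seen and are given without a test.

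**Figure D3:**
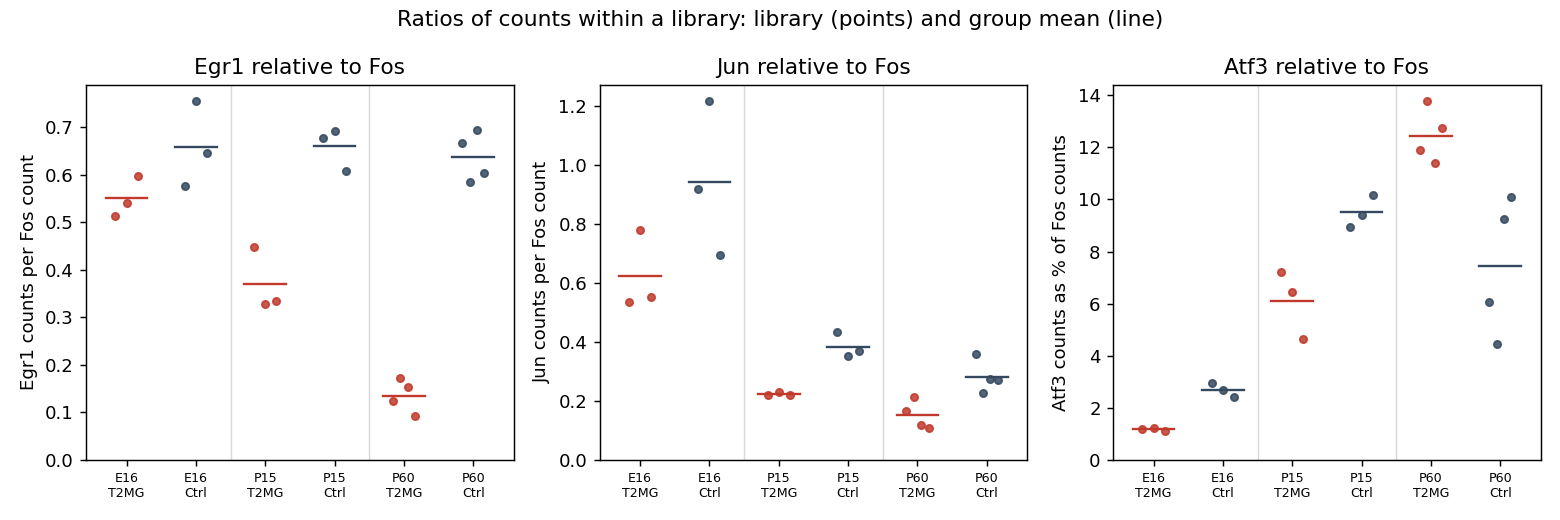
Counts of Egr1 and Jun per Fos count, and Atf3 counts as a percentage of Fos counts, in each library (points) with group means (lines), T2MG in red left of Control in blue at each stage. At P60 Egr1 per Fos lies between 0.0919 and 0.172 in T2MG and between 0.586 and 0.694 in Control, and all 4 T2MG values of Atf3 per Fos lie above the Control values.

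Per kilobase of exon sequence, Fos had the highest and Egr3 the lowest mean CPM of the 10 genes in all 6 groups. Egr1 ranked 7 in P60 T2MG (498 ± 162 CPM per kilobase, SD, n = 4) and 2 in P60 Control (2365 ± 587, n = 4). Atf3 ranked 4 in P60 T2MG (938 ± 101 CPM per kilobase) and 7 in P60 Control (610 ± 341). In P60 T2MG the neighbours Atf3 and Jun (771 ± 255 CPM per kilobase), Jun and Ier2 (721 ± 110), and Ier2 and Egr1 lay within or near their spread of each other.

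Libraries of 1 group did not vary independently from gene to gene. Over the 20 libraries, deviations of log2 CPM from the group mean correlated positively in all 45 pairs of the 10 genes, with Pearson r from 0.34 (Egr3 and Jund) to 0.93 (Junb and Ier2) and a median of 0.73, a description over libraries that share depth and handling. In E16 T2MG 2, P15 T2MG 2, P60 Control 2 and P60 T2MG 4 all 10 genes were below their group mean, by 0.69, 0.48, 0.53 and 0.34 on average on the log2 scale. In E16 T2MG 3, P15 T2MG 1, P60 T2MG 2 and P60 Control 3 and 4 all 10 were above it, by 0.43, 0.31, 0.29, 0.37 and 0.47. Mean heat shock deviations went the same way in P60 Control 2 (-0.50), 3 (0.31) and 4 (0.52). They went the other way in P15 T2MG 2 (0.82) and P60 T2MG 4 (0.21). Nearer to the group mean were E16 T2MG 2 (-0.13), E16 T2MG 3 (0.08), P15 T2MG 1 (0.06) and P60 T2MG 2 (0.06).

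**Figure D4:**
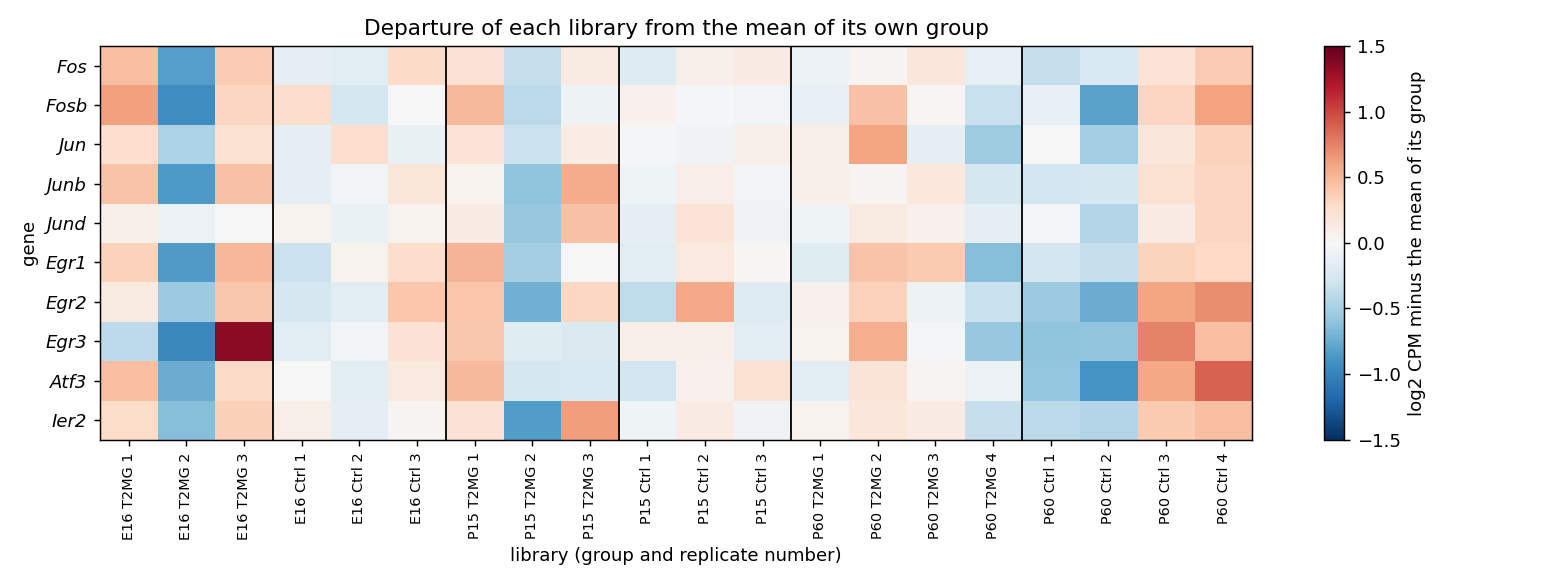
Log2 CPM of each of the 10 genes in each library minus the mean of its own group (colour scale from -1.5 to 1.5), with groups separated by lines and T2MG left of Control at each stage. Columns are mostly of 1 colour: E16 T2MG 2, P15 T2MG 2, P60 T2MG 4 and P60 Control 2 are blue for all 10 genes, and E16 T2MG 3, P15 T2MG 1, P60 T2MG 2 and P60 Control 3 and 4 are red for all 10.

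The genes outside the set whose deviations were most like the mean deviation of the 10, among 9459 genes averaging 10 CPM or more, were Rrp1b (r = 0.905), Klf4 (0.900), Zfp36 (0.890), Nfkbiz (0.847), Btg2 (0.831), Sh2b1 (0.83), Srsf5 (0.826), Ccdc9 (0.816), Ier5 (0.812) and Pank4 (0.806), over 20 libraries. Of these, Klf4, a Krueppel-like factor, Zfp36, an mRNA decay factor, Nfkbiz, a nuclear inhibitor of NF-kappaB, Btg2 and Ier5 were in the wider immediate early list. Their genotype differences were not alike at P60: Rrp1b fell (-0.87), Btg2 fell (-0.88) and Ier5 fell (-0.52), Klf4, Zfp36, Sh2b1, Srsf5 and Pank4 were not called, and Ccdc9 rose (0.66, adjusted p = 0.000509). Nfkbiz also rose (2.08), at 1306 ± 277 CPM in P60 T2MG and 309 ± 106 CPM in P60 Control (SD, n = 4 each).

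The wider immediate early list did not move as 1 block with the 10 genes. Of its 40 tested genes, 3 fell and none rose in T2MG at E16, 9 fell and 4 rose at P15, and 9 fell and 16 rose at P60, with median log2 fold changes of -0.42, -0.30 and 0.45. Among all genes 2.67% were called lower and 0.527% higher at E16, 12.3% lower and 11.7% higher at P15, and 15.7% lower and 23.5% higher at P60, so the 4 that rose at P15 are near the share of all genes. Sgk1 fell at each stage (-3.29 at P15 and -3.76 at P60, and at E16 with adjusted p = 0.00137), as did Rhob, which encodes a small GTPase (-1.36, -2.28 and -2.46). Plk2, a polo-like kinase, rose at P60 (3.75, adjusted p = 8.57e-09), and so did Phlda1 (3.68, adjusted p = 5.79e-07). In the change of the genotype effect between P15 and P60, 8 genes of this list were higher and none lower, where 5.63% of all genes were higher and 2.4% lower, among them Nr4a2, an orphan nuclear receptor (4.83), and Tnfaip3, a brake on NF-kappaB (2.17).

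The other lists of genes that form or control AP-1 and Egr activity are small, and their counts are read against the same shares of all genes. Of 13 other leucine-zipper genes, 5 rose and 2 fell at P15 and 6 rose and 2 fell at P60, and none was called by edgeR at E16 (4 at an unadjusted p under 0.05, against 17.3% of all genes). Jdp2, which represses AP-1 targets, rose (2.12 at P15, and at P60 with adjusted p = 1.79e-05), as did Batf (1.42 and 1.54) and Batf2 (2.56 and 3.64). Of 29 upstream kinases and factors, 5, 7 and 10 fell and 0, 4 and 5 rose at the 3 stages. Rps6ka1, a kinase downstream of ERK, fell at each (-1.09, -1.18 and -1.97), and Elk3, a partner of serum response factor, fell at E16 (-1.74) and P60 (-1.38). The P15 value of Elk3 was outside the naming rule and is not given, which does not mean that Elk3 did not fall there. Its genotype effect changed by 0.91 from E16 to P15 (SE 0.27, edgeR adjusted p = 0.0305). From P15 to P60 the change was -0.56 (SE 0.25, edgeR adjusted p = 0.18). Of 14 inhibitors, 3 fell and 3 rose at P15 and 3 fell and 5 rose at P60. Dusp6, the phosphatase of ERK, fell (-1.54 and -1.39) and Nab1, a corepressor of Egr proteins, rose at P60 (1.00). Of 12 heat shock genes, none was called at E16 (1 at an unadjusted p under 0.05), 3 fell at P15 and 2 fell at P60, Hspb1 (-2.87) and Dnaja1 (-0.55). The 2 heat shock genes and 3 inhibitors that fell at P60 and the 5 upstream genes that rose there are near or below the shares of all genes. So are the 2 other leucine-zipper genes that fell at P15, the 2 that fell at P60, and the 4 upstream genes that rose at P15.

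**Figure D5:**
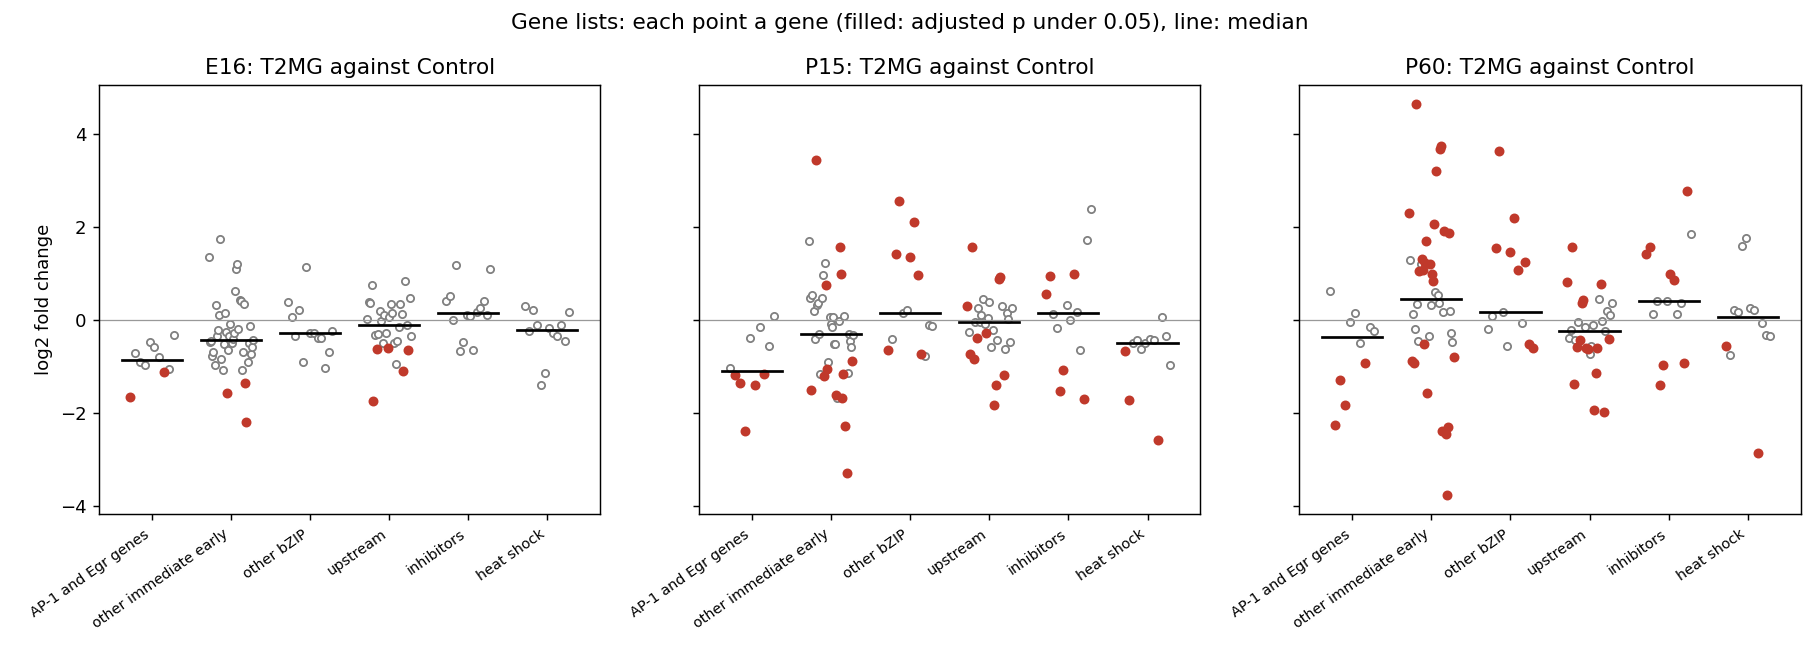
Log2 fold change of T2MG against Control for each tested gene of 6 lists at E16, P15 and P60, with medians as lines; filled red points have an adjusted p under 0.05. At P60 the 10 AP-1 and Egr genes have filled points only below 0, while the other immediate early genes have filled points from -3.76 to 4.64.

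Markers of some other cell types differed with the genotype beside these results and others did not. Their part was not tested except as stated. Of the neuron markers 0, 4 and 9 were called higher at E16, P15 and P60, and none lower. The 15 neuron markers summed to 1153 to 1419 CPM in E16 T2MG and 386 to 875 CPM in E16 Control, 45.3 to 107 CPM in P15 T2MG and 8.25 to 38.1 CPM in P15 Control, and 48.7 to 66.7 CPM in P60 T2MG and 5.40 to 31.4 CPM in P60 Control, without overlap at each stage; Dcx was at 0 in all P15 and P60 Control libraries. With the mean level of this list as a covariate, calls fell to 0 of the 10 genes at E16, 2 at P15 (Jun and Egr3) and 1 at P60 (Egr1, -1.94, adjusted p = 0.0126). The P60 values of Jun, Egr2 and Egr3 in that fit were -0.79 (adjusted p = 0.201), -1.32 (0.154) and -1.16 (0.334). Over all genes, calls in that fit went from 498 to 138 at E16, 3738 to 2548 at P15 and 6113 to 2734 at P60. Since the list itself separated the genotypes, in that fit list and genotype cannot be told apart.

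The 10 border-associated macrophage markers, none of them at 0 in any group, summed to 7498 to 12229 CPM in P60 T2MG and 62.0 to 610 CPM in P60 Control, and to 3084 to 5454 CPM in P15 T2MG and 615 to 664 CPM in P15 Control. All 10 were called higher at P60. Of 11 oligodendrocyte markers 10 were called higher and none lower at P60, with a summed level of 987 to 1840 CPM in P60 T2MG and 303 to 393 CPM in P60 Control. At P15, 2 were called higher and 1 lower, with 912 to 981 CPM in P15 T2MG and 275 to 514 CPM in P15 Control. Of 10 astrocyte markers 9 were called higher and 1 lower at P60, although their summed level overlapped, at 189 to 341 CPM in P60 T2MG and 216 to 286 CPM in P60 Control, and 2 were called higher and 2 lower at P15. The summed level of the 11 lymphocyte markers was 345 to 466 CPM in P15 T2MG and 129.9 to 286 CPM in P15 Control. That of the 10 endothelial markers overlapped, at 29.0 to 37.9 CPM in P15 T2MG and 28.6 to 40.2 CPM in P15 Control. None of the lymphocyte or endothelial markers was called at P15. The neutrophil markers summed to 7611 to 30391 CPM in P15 T2MG and 3673 to 9499 CPM in P15 Control, with overlap. None of them was called at P15. The 9 monocyte markers summed to 1926 to 21876 CPM in P15 T2MG, highest in T2MG 3, and 1222 to 2233 CPM in P15 Control, also with overlap. Of these, 1 was called higher and 1 lower at P15. Without P15 T2MG 3, Fosb (-1.33), Jun (-1.21), Egr2 (-1.49) and Egr3 (-2.27) kept their P15 calls and Egr1 did not. Without P60 Control 1, Jun (-0.92), Egr1 (-2.34), Egr2 (-1.46) and Egr3 (-2.02) kept their P60 calls.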

How the data were processed

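Poly-A RNA of FACS-sorted mouse microglia was sequenced in 20 libraries. Per the labels' protocols, RNA was purified on Qiagen micro columns and amplified to cDNA with Clontech SMART-Seq chemistry for very little RNA, without molecular identifiers. The build mm10, TopHat2 0.7 and Cufflinks 2.2.1 are listed, per the submitters' processing notes, with no role stated. The table deposited by the authors holds whole-number counts for each gene and library, not normalized. Which tool counted, with which annotation and strand setting, is not given in the sources used.

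Of 24421 entries, 27 bore a date in place of a symbol and were left out (0.122% to 0.256% of a library's counts). The deposited counts were analysed with edgeR 4.0.16 (R 4.3.3), using its default expression filter by group, TMM scaling, 1 group-means fit over the 20 libraries and 6 groups, quasi-likelihood F tests and Benjamini-Hochberg adjustment over 15568 genes. Genes were called at an adjusted p under 0.05. Fold changes are T2MG over Control, or later over earlier stage, and the common dispersion was 0.107. The procedure was also run on simulated counts with planted genotype changes, in which each gene otherwise had the same mean in all groups. The outcome of that run is not given here and is not used as support. Replicate libraries differed beyond sampling noise (chi-square per gene 5.26 to 155), so each counted once. The p-values measure the spread between the animals of these groups.

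Alternatives were RLE size factors, library totals, DESeq2 1.42.0, voom of limma 3.58.1, no filter on low counts, the libraries of a contrast alone, the neuron list as a covariate, a replicate block and leaving out libraries. Named are the 10 genes; from each other list up to 4 genes per comparison with the smallest adjusted p; the 10 genes most like the mean deviation of the 10; and Tgfbr2. Sall1, Csf1r and Dcx were named from the marker lists after their values were seen. The genes and lists were chosen with earlier results of these data known. Promoters came from RefSeq and positions from GENCODE M21.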

Additional observations from a re-analysis of the deposited data

Results flagged for a closer look

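P60 Control 1 was far from the other 3 P60 Control libraries in the summed CPM of 6 gene lists: 3666 CPM for upstream kinases and factors, 31.4 for neuron, 610 for border-associated macrophage, 1745 for monocyte, 8191 for neutrophil and 437 for lymphocyte markers. These were 6 of 56 group values looked at, and chance marks about 1 group in 20. Their part in the results on the 10 genes was not tested beyond leaving the library out, after which Jun, Egr1, Egr2 and Egr3 stayed called at P60.

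The genotype effect on Fosb differed between P60 and P15 by 1.55 on the log2 scale (edgeR adjusted p = 0.0482). Fosb averaged 394 ± 93.5 CPM in P60 T2MG and 354 ± 136 CPM in P60 Control (SD, n = 4 each), and 149 ± 48.0 CPM in P15 T2MG and 390 ± 16.6 CPM in P15 Control (SD, n = 3 each).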

How the results depend on the processing

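Over the single-gene values of the 10 genes, 1042 alternatives kept direction and side of the threshold, 51 lost a call, 21 gained one and 36 changed sign. At E16 the 2 calls became 1 with RLE size factors, 0 with library totals, the neuron covariate or the replicate block, and 0 to 2 with 1 library left out; DESeq2 gave 3. At P15 the 5 calls became 2 with the neuron covariate, 4 with the replicate block and 3 to 6 with 1 library left out (3 without Control 2 or without T2MG 2). At P60 the 4 calls became 1 with the neuron covariate and 4 to 5 with 1 library left out. In the P60 minus P15 effect the 1 call became 0 with RLE size factors, without a filter, with the contrast's libraries alone and with the replicate block, became 2 with library totals, DESeq2, limma voom or the neuron covariate, and 0 to 2 with 1 library left out. Control P15 against E16 went to 5 with the neuron covariate, and Control P60 against P15 to 1 with library totals, DESeq2, limma voom or that covariate. The cause of each was not tested.

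Same-numbered T2MG and Control libraries deviated together with r of 0.01, 0.33 and 0.10 at E16, 0.13, -0.03 and -0.03 at P15 and 0.22, 0.13, 0.01 and -0.06 at P60, so the numbers were not taken as pairs; under the replicate block the members called were 0, 4 and 4 at E16, P15 and P60.

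Signs changed for values near 0. Egr2 in P60 minus P15 was -0.021 with RLE and -0.022 with DESeq2. With library totals, Jund at P15 was -0.053, Fos at P60 0.0057, Fos in P15 minus E16 -0.20 and Egr1 in Control P60 against P15 -0.040. With the neuron covariate, Ier2 at P15 was 0.047 and Fos at P60 0.14. With 1 library left out, values ran from -0.25 to 0.10 for Jun and -0.23 to 0.29 for Fos in P15 minus E16, -0.14 to 0.33 for Jund and -0.48 to 0.17 for Ier2 at P15, -0.14 to 0.10 for Fos and -0.053 to 0.37 for Fosb at P60, -0.27 to 0.32 for Egr2 in P60 minus P15, and -0.42 to 0.15 for Atf3, -0.36 to 0.067 for Fosb and -0.25 to 0.045 for Ier2 in Control P60 against P15. Library totals moved the median of all genes to 0.18, -0.11 and 0.17 at E16, P15 and P60 and to -0.40 in Control P15 against E16. Over all genes, the 498 calls at E16 became 953 with DESeq2, 1198 with limma voom, 324 with library totals, 319 with the contrast's libraries alone, 138 with the neuron covariate, 276 with the replicate block and 148 to 961 with 1 library left out. The contrast's libraries alone gave 2209 in place of 3738 at P15 and 1118 in place of 2893 in Control P60 against P15; the neuron covariate gave 2734 in place of 6113 at P60 and 1896 in place of 7896 in Control P15 against E16. The 1249 in P60 minus P15 became 712 with the contrast's libraries alone, 2288 with DESeq2, 1882 with limma voom and 580 to 2665 with 1 library left out. With 1 library left out, P15 gave 2470 to 4086, P15 minus E16 1411 to 3191 (2534 with all) and Control P60 against P15 1293 to 4944. Egr3 had 5 to 208 counts per library, the fewest of the 10 genes.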
